A study of Homo sapiens with 8 samples.

Results

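The genes described here are those of homologous recombination and of the Fanconi anemia pathway, 37 genes chosen by symbol for their function out of 26364 genes in the count table. All 37 were present in the table, and all 37 had enough reads to be tested, among 14201 genes tested in all. They fall into 8 groups by role, from the first cutting of a broken DNA end to the ubiquitin signal of the Fanconi pathway.

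Homologous recombination copies the missing sequence of a broken chromosome from the sister chromatid, and is therefore used mainly in the S and G2 phases of the cell cycle. Broken ends are first resected to single strands, a recombinase filament is then loaded with the help of the BRCA proteins and the recombinase paralogs, and the joined molecules are finally dissolved by helicases or cut by nucleases. The Fanconi anemia pathway acts at replication forks that meet a block, where a core ubiquitin ligase marks the FANCD2 and FANCI pair and so calls in nucleases and recombination. In glioma cells both are known to act on the breaks that follow the methylation of DNA bases by temozolomide. Such breaks form through futile mismatch repair of the mispaired bases, in the second round of replication after exposure.

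The study asked whether the place of survivin in the cell alters the response of glioblastoma cells to temozolomide (TMZ), a methylating drug used in glioma therapy. Survivin, encoded by BIRC5, is an inhibitor of apoptosis protein that also takes part in chromosome segregation. RNA-seq libraries were made from LN229, an established human glioblastoma cell line, in 4 groups of 2 libraries with the letters a and b. All 4 groups carried a stably transfected pcDNA3.1 plasmid with a survivin cDNA fused to eGFP and were grown with the selection drug G418.

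In the Surv-GFP groups the plasmid held survivin with a working nuclear export sequence (NES), which the labels describe as mostly cytoplasmic, and in the SurvNESmut-GFP groups it held the NES-mutated form. Within each pair, a group was left untreated or received TMZ at 50 µM over 48 h. The stock of TMZ was made in dimethyl sulfoxide (DMSO), and neither the labels nor the methods say that the untreated cells of these libraries received it, so that TMZ and its solvent cannot be told apart. Each of the 2 lines is a single clone, D6 for Surv-GFP and L2 for SurvNESmut-GFP, so that the NES mutation and any other difference between the clones cannot be told apart. Both clones keep their own BIRC5 gene, and the table does not separate its reads from those of the plasmid. The sources used here speak of biological replicates and of technical duplicates without saying which the letters mark, so all p-values measure only the spread between these libraries, which may be technical.

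The libraries held 15826923 to 18861603 reads on genes, of which 0.146 to 0.226% fell on the members. Single members had from 78 to 5733 reads in a library. Libraries of a group had a Pearson correlation of at least 0.994 of log2 CPM across genes, against at most 0.986 between groups, and those of TMZ-exposed SurvNESmut-GFP differed most beyond counting noise (chi-square per degree of freedom 5.49, against 2.14 to 2.58 in the other groups). The glioma line markers VIM, NES, CD44 and TNC were abundant and GFAP had at most 17 reads. SOX2 and OLIG2, factors of glial progenitors, were at 88.8 and 92.6 CPM and at 35.2 and 32.7 CPM in untreated Surv-GFP, above the 33.6 and 35.2 CPM and the 7.37 and 6.5 CPM of untreated SurvNESmut-GFP. With TMZ, SOX2 was at 54.3 and 54.5 CPM in Surv-GFP and at 19.4 and 19.7 CPM in SurvNESmut-GFP. Leukocyte, endothelial and epithelial markers were all below 1 CPM. SYT1, a neuronal gene, was at 33.2 to 162 CPM, but RBFOX3, another neuronal gene, had 1 read over all 8 libraries. MBP, an oligodendrocyte gene, was at 0 in Surv-GFP and at 6.22 to 7.1 CPM in SurvNESmut-GFP. MOG, another oligodendrocyte gene, had 2 to 11 reads in each library. BIRC5 stood at 1150 and 1110 CPM in untreated and 1940 and 2030 CPM in TMZ-exposed Surv-GFP, and at 407 and 414 CPM in untreated and 262 and 253 CPM in TMZ-exposed SurvNESmut-GFP. The clones therefore also differed in the amount of BIRC5 RNA, in a direction that both exposures shared.

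Levels are given below as counts scaled to a common library size (CPM), in the order of libraries a and b, and differences as log2 fold changes with a standard error (SE). A gene was called higher or lower at an adjusted p of 0.05 in edgeR's quasi-likelihood F test, with Benjamini-Hochberg adjustment over all 14201 tested genes. Per kilobase of exon, UBE2T was the most abundant member in untreated Surv-GFP at 31.2 CPM per kilobase, ahead of FANCL at 20.5 and FANCI at 19.8. In TMZ-exposed SurvNESmut-GFP the order was led by FANCI at 43.5 CPM per kilobase, with UBE2T at 34 and RAD54L at 23.8. RAD51B was the lowest member in all 4 groups, at 0.592 to 0.871 CPM per kilobase. For these lengths the exons of all annotated transcripts of a gene were merged, so the rankings depend on the annotation too.

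Upon TMZ, most members that passed the test fell in the Surv-GFP clone, while nearly all that passed it rose in the SurvNESmut-GFP clone. In Surv-GFP, 21 of the 37 members (56.8%) were lower after TMZ, against 28.9% of all tested genes, and 8 (21.6%) were higher, against 30.1%. In SurvNESmut-GFP, 17 members (45.9%) were higher, against 18.6% of all tested genes, and FANCL alone (2.7%) was lower, against 19.1%. Over the members the median log2 fold change was −0.22 for Surv-GFP cells and 0.16 for SurvNESmut-GFP cells, where that over all tested genes was 0 in both. In bulk RNA, fewer cells in the cell cycle phases that use these genes and less RNA of them per cell cannot be told apart.

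The difference between the TMZ effects, tested as an interaction, was called for 22 members (59.5%), all with the larger log2 fold change in SurvNESmut-GFP, against 16.6% of all tested genes in that direction. In the opposite direction 0 members were called by edgeR or by DESeq2, and 0 had an unadjusted p under 0.05 there, against 20.2% of all tested genes called. The point estimate was above 0 for 35 of the 37 members, and RAD51C and WRN were the other two. This count rests in part on 1 library: without the untreated Surv-GFP library b fewer members were called, and fewer of all tested genes too. The members still called were RAD51D, XRCC2, RAD54L, BLM, RMI2, EME1, FANCA, FANCE, FANCI, BRIP1 and FAN1. In that library 29 of 37 members were above library a, by a median of 0.09 on the log2 scale, and the summed level of 28 mitosis genes was 5530 CPM, against 5110 CPM in library a. The part of this in the result was not tested.

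**Figure D1:**
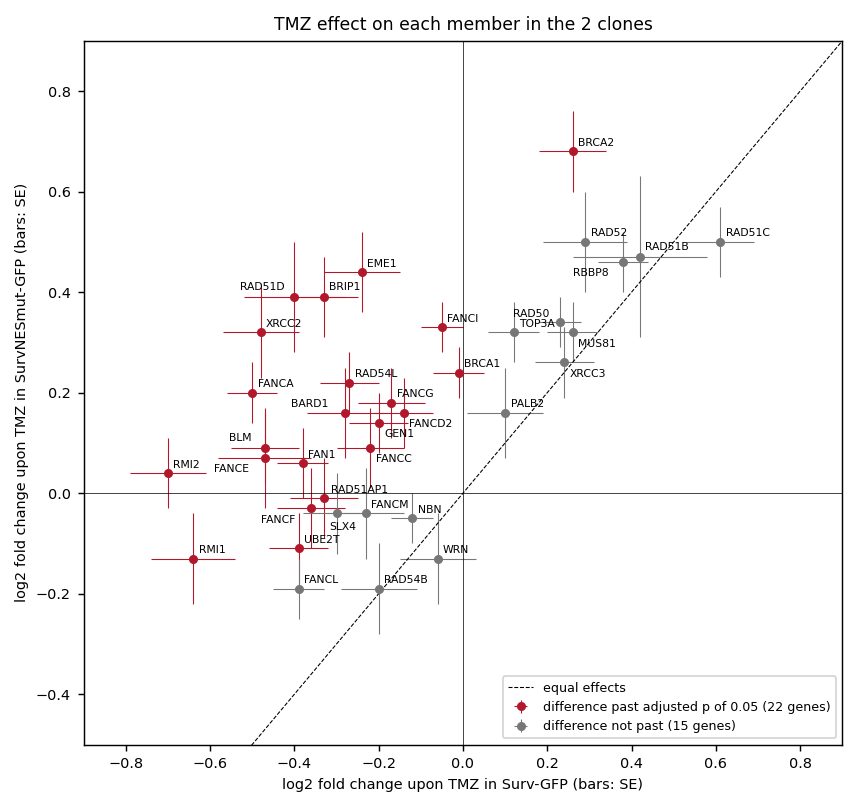
Log2 fold change upon TMZ of each of the 37 members in Surv-GFP (horizontal axis) against that in SurvNESmut-GFP (vertical axis), with bars for the SE and a dashed line where both effects are equal. The 22 members in red, whose effects differed, all lie above the line, and RAD51D, XRCC2, RAD54L, EME1, FANCA and BRIP1 lie at upper left, lower in Surv-GFP and higher in SurvNESmut-GFP.

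By pattern, 6 members were lower in Surv-GFP, higher in SurvNESmut-GFP and different between the clones in their TMZ effect, which is 16.2% of the members against 1.66% of all tested genes. Another 11 (29.7%) were lower in Surv-GFP, not past the threshold in SurvNESmut-GFP and different between the clones, against 8.15% of all tested genes. In 7 members, RAD50, RBBP8, RAD51B, RAD51C, XRCC3, RAD52 and MUS81, RNA rose in both clones and the difference was not past the threshold, a pattern of 18.9% of the members and 6.65% of all tested genes. BRCA2 rose in both and rose more in SurvNESmut-GFP. PALB2, RAD54B and WRN passed no test of a TMZ effect, although RAD54B in Surv-GFP, at a log2 fold change of −0.2 (adjusted p = 0.055), was called lower under 9 of 17 alternatives, with adjusted p down to 0.023.

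**Figure D2:**
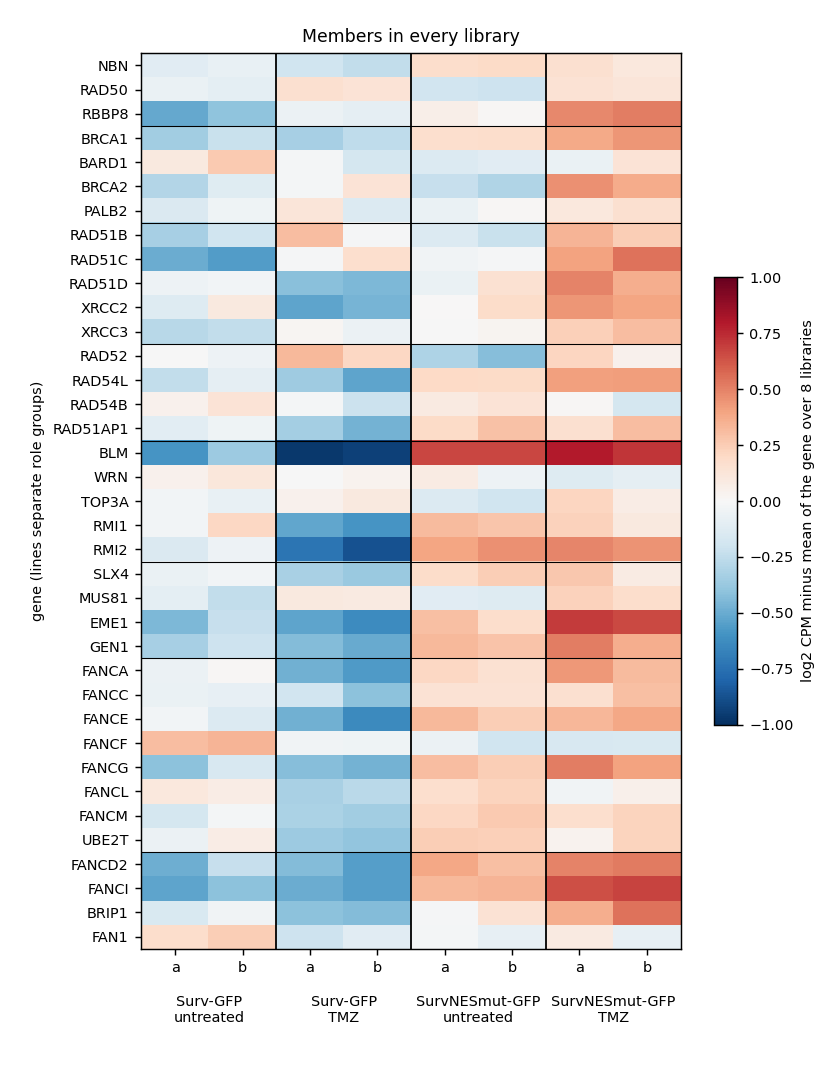
Log2 CPM of each member minus its mean over the 8 libraries (colour, blue below and red above the mean), with genes in rows by role and libraries a and b of each group in columns. In 28 rows both exposed SurvNESmut-GFP libraries lie above both exposed Surv-GFP libraries, as for 41.7% of all tested genes, and BLM, at 66.2 and 62.7 against 19.5 and 20 CPM, spans the widest range of colour.

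Sequence upstream of the genes was looked at as a feature that the choice of members did not use. RefSeq promoters of GRCh38.p14, from 250 bases before to 50 bases after a gene's start, were matched by symbol for 32 of the 37 members; FANCI, RMI2, NBN, WRN and RAD54B were not matched. The core letters that E2F factors of the cell cycle are known to bind can be spelled in 4 ways, the word TTCCCGC or the related word TTCGCGC, and likewise the word TTGCCGC or the related word TTGGCGC. At least 1 of these words stood on either strand in 21 of the 32 promoters (65.6%). Of the promoters of the same length in the whole table, 13% held such a word, and of the 10454 tested gene symbols with a promoter, 24.6% did. The word was present in 17 of the 20 members whose TMZ effect differed between the clones, and in 4 of the 12 others. The letters CCAAT were found on either strand in 43.8% of the members and in 43.5% of the tested symbols. By the same split they stood in 10 of the 20 members and in 4 of the 12 others. The element known as CHR, searched as TTTGAA or as TTCGAA, was found in 12.5% of the members and in 15.9% of the tested symbols. It stood in 4 of the 20 members and in 0 of the 12 others. These words were chosen after the data were seen, the counts are a description, and no binding was measured.

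Stretches of 80 bases upstream of the start are shown for 3 members whose TMZ effect differed between the clones and for 3 that rose in both, to set a promoter with such a word beside one without. These examples do not stand for all members. RAD52 and XRCC3 also rose in both clones, and their promoters hold such a word. The effects of BRCA2, UBE2T and FAN1 differed between the clones, and their promoters hold none. Capitals mark the word or its reverse complement, each sequence is read 5′ to 3′ on the strand of the gene, and no base shown lies in an annotated exon. The stretches shown are RAD54L at chr1:46247602-46247681 (plus strand), BLM at chr15:90717235-90717314 (plus strand), FANCA at chr16:89816777-89816856 (minus strand), RAD51C at chr17:58692493-58692572 (plus strand), RBBP8 at chr18:22933235-22933314 (plus strand) and RAD50 at chr5:132556858-132556937 (plus strand), all from RefSeq on GRCh38.p14.
RAD54L: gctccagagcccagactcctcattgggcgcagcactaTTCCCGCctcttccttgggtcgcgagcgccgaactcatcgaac
BLM: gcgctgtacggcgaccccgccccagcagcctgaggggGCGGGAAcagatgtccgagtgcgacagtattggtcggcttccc
FANCA: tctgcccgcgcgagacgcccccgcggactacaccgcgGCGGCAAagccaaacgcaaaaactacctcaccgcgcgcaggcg
RAD51C: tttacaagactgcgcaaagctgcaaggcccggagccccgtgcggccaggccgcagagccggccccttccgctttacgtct
RBBP8: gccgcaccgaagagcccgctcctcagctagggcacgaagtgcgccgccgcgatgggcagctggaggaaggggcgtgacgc
RAD50: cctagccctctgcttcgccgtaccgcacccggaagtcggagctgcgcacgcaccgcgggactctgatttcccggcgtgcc

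Among the genes of end resection, RBBP8, which encodes CtIP and switches on the cutting of broken ends, rose upon TMZ in both clones. It stood at 39.3 and 42.2 CPM in untreated and 53.7 and 52.4 CPM in TMZ-exposed Surv-GFP, and at 58.1 and 56.4 CPM in untreated and 78.2 and 79.8 CPM in TMZ-exposed SurvNESmut-GFP. The 4 groups did not overlap and stood in that order. The log2 fold change upon TMZ was 0.38 (SE 0.06, adjusted p = 4.1e-05) in Surv-GFP and 0.46 (SE 0.06, adjusted p = 6.9e-06) in SurvNESmut-GFP, and the difference of 0.08 was not past the threshold (SE 0.08, adjusted p = 0.47). RAD50, the ATPase of the complex that holds and opens broken ends, had 106 and 104 CPM in untreated and 124 and 122 CPM in TMZ-exposed Surv-GFP, and 97.1 and 96.5 against 123 and 121 CPM in SurvNESmut-GFP. TMZ-exposed libraries lay above untreated ones in each clone, and those of both clones overlapped. Exons of RAD50 overlap those of the annotated gene AC116366.3 over 79.7% of their length, so that its reads may be split or set aside as ambiguous. NBN, the third subunit of that complex with RAD50, fell by 0.12 on the log2 scale in Surv-GFP (SE 0.05, adjusted p = 0.049), a call that 10 of 17 alternatives ended, with adjusted p up to 0.23.

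In the BRCA group, BRCA2, which loads the recombinase on single-stranded DNA, had the largest rise of any member in SurvNESmut-GFP. It stood at 28.2 and 31.7 CPM in untreated and 34 and 37.9 CPM in TMZ-exposed Surv-GFP, and at 29.4 and 28 CPM in untreated and 47.2 and 44.6 CPM in TMZ-exposed SurvNESmut-GFP. The untreated clones overlapped, and TMZ-exposed SurvNESmut-GFP stood above all other libraries. The log2 fold change was 0.26 (SE 0.08, adjusted p = 0.0095) in Surv-GFP and 0.68 (SE 0.08, adjusted p = 4.5e-06) in SurvNESmut-GFP, and the effects differed by 0.41 (SE 0.11, adjusted p = 0.0084).

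BRCA1, a ubiquitin ligase subunit that favours resection and recombinase loading, was at 70 and 76.3 CPM in untreated and 70.9 and 74.6 CPM in TMZ-exposed Surv-GFP, and at 100 and 101 CPM in untreated and 116 and 121 CPM in TMZ-exposed SurvNESmut-GFP. The Surv-GFP groups overlapped, whereas the SurvNESmut-GFP groups were apart and both higher. The difference between the TMZ effects was 0.25 (SE 0.08, adjusted p = 0.02). Its partner BARD1 was at 30.6 and 34.4 CPM in untreated and 28.2 and 25.4 CPM in TMZ-exposed Surv-GFP, and at 26.1 and 26.5 CPM in untreated and 27.4 and 31.5 CPM in TMZ-exposed SurvNESmut-GFP. The exposed clones overlapped, while untreated Surv-GFP stood above untreated SurvNESmut-GFP. BARD1 fell by 0.28 on the log2 scale in Surv-GFP (SE 0.09, adjusted p = 0.013) and changed by 0.16 in SurvNESmut-GFP without passing the threshold (adjusted p = 0.17), and these effects differed by 0.44 (SE 0.13, adjusted p = 0.012). PALB2, the bridge between BRCA1 and BRCA2, had 23.5 to 29.1 CPM over the 8 libraries. Without the untreated Surv-GFP library b the differences of BRCA1, BARD1 and BRCA2 were not past the threshold, nor was that of BRCA1 without either untreated SurvNESmut-GFP library, or those of BRCA1 and BRCA2 without the exposed Surv-GFP library a, with adjusted p over all alternatives up to 0.14, 0.073 and 0.066. In Surv-GFP, the call of BRCA2 was lost without untreated library a or exposed library b and in DESeq2, and that of BARD1 without library b of either group (adjusted p up to 0.2 and 0.16).

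The 5 recombinase paralogs, which stabilise the filament of the recombinase, were all higher upon TMZ in SurvNESmut-GFP, against 18.6% of all tested genes. In Surv-GFP, RAD51B, RAD51C and XRCC3 were higher (60%) and RAD51D and XRCC2 lower (40%), against 30.1% and 28.9% of all tested genes. RAD51C, shared by both paralog complexes, stood at 30.5 and 29.3 CPM in untreated and 42.7 and 48.5 CPM in TMZ-exposed Surv-GFP, and at 42 and 42.7 CPM in untreated and 56.9 and 62.8 CPM in TMZ-exposed SurvNESmut-GFP. Exposed libraries lay above untreated ones in each clone, and untreated SurvNESmut-GFP reached the level of exposed Surv-GFP. Its log2 fold change of 0.61 (SE 0.08, adjusted p = 3.6e-06) was the largest rise of a member in Surv-GFP, beside 0.5 (SE 0.07, adjusted p = 4.3e-05) in SurvNESmut-GFP.

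XRCC2 had 23.9 and 28 CPM in untreated and 18.2 and 19 CPM in TMZ-exposed Surv-GFP, and 26.3 and 29.7 CPM in untreated and 35.5 and 34.5 CPM in TMZ-exposed SurvNESmut-GFP. The untreated clones overlapped, and the exposed ones lay apart on either side of them. The log2 fold change was −0.48 (SE 0.09, adjusted p = 0.00033) in Surv-GFP and 0.32 (SE 0.09, adjusted p = 0.0072) in SurvNESmut-GFP, and their difference of 0.80 (SE 0.13, adjusted p = 0.00012) was the largest among the members. RAD51D, which binds XRCC2 directly, showed the same order, with 11.8 and 12 CPM against 9.14 and 8.95 CPM in Surv-GFP and 11.7 and 13.6 CPM against 17.2 and 15.7 CPM in SurvNESmut-GFP. The untreated clones again overlapped, and the difference between the TMZ effects was 0.78 (SE 0.16, adjusted p = 0.00095). Both differences passed the threshold under all 16 alternatives, but the rise in SurvNESmut-GFP did not without its untreated library a for either gene (adjusted p up to 0.11), nor for RAD51D without its TMZ-exposed library a or in DESeq2.

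RAD51B, the paralog with the fewest reads, rose from 4.23 and 4.64 CPM to 6.58 and 5.28 CPM in Surv-GFP and from 4.83 and 4.56 CPM to 6.72 and 6.3 CPM in SurvNESmut-GFP. In both clones the exposed libraries lay above the untreated ones, with log2 fold changes of 0.42 (SE 0.16, adjusted p = 0.032) and 0.47 (SE 0.16, adjusted p = 0.027). Either call was lost in DESeq2 and without any of 3 libraries of its clone, both untreated ones and the exposed library a, and the first also with a filter of 1 CPM in 2 libraries, with adjusted p up to 0.3 and 0.14. XRCC3, the second partner of RAD51C, rose by 0.24 and 0.26 (SE 0.07 each). Over 76.7% of its exon length it overlaps KLC1 on the opposite strand. Unless the counting used strand, XRCC3 may there share reads or lose them as ambiguous. Its call in Surv-GFP was lost without untreated library a or exposed library a of that clone and in DESeq2, with adjusted p up to 0.071.

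Of the strand exchange partners, RAD54L, a motor protein that drives pairing with the template, moved in opposite directions in the clones. It was at 48.1 and 53.6 CPM in untreated and 44.6 and 39.7 CPM in TMZ-exposed Surv-GFP, and at 65.8 and 65.4 CPM in untreated and 76 and 76.6 CPM in TMZ-exposed SurvNESmut-GFP. The 4 groups did not overlap, and all SurvNESmut-GFP libraries stood above all Surv-GFP libraries. The log2 fold changes were −0.27 (SE 0.07, adjusted p = 0.0032) and 0.22 (SE 0.06, adjusted p = 0.013), and they differed by 0.49 (SE 0.09, adjusted p = 0.00074). The fall in Surv-GFP was not past the threshold without its untreated library b (adjusted p up to 0.075), nor was the rise in SurvNESmut-GFP without either of its untreated libraries or in DESeq2 (adjusted p up to 0.084). In the annotation, 25.1% of the exon length of RAD54L overlaps LRRC41 on the opposite strand.

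RAD52, which anneals single strands, rose from 15.6 and 15.1 CPM to 19.5 and 18 CPM in Surv-GFP and from 12.6 and 11.6 CPM to 18.1 and 16.1 CPM in SurvNESmut-GFP. Exposed libraries lay above untreated ones in each clone, with log2 fold changes of 0.29 (SE 0.1, adjusted p = 0.018) and 0.5 (SE 0.1, adjusted p = 0.0011). The first was lost without untreated library b or exposed library a of Surv-GFP and in DESeq2, with adjusted p up to 0.13. RAD51AP1, which stimulates strand invasion, fell by 0.33 in Surv-GFP (SE 0.08, adjusted p = 0.0027), and its effects differed by 0.32 (SE 0.11, adjusted p = 0.035), a call that was lost in DESeq2 and without either untreated or the exposed b library of Surv-GFP, the untreated a or the exposed b library of SurvNESmut-GFP, with adjusted p up to 0.13. RAD54B, a relative of RAD54L whose exons overlap those of FSBP over 59.1% of their length, had 24.7 to 31.4 CPM over the libraries.

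Among the helicases and their partners is the complex that dissolves joined molecules without cutting them. Of its 4 genes, 3 were called lower upon TMZ in Surv-GFP, beside 28.9% of all tested genes. The subunits RMI1 and RMI2 and the helicase BLM were lower, while TOP3A, its topoisomerase, was not past the threshold (log2 fold change 0.12, SE 0.06, adjusted p = 0.095). RMI2 stood at 22.3 and 23.8 CPM in untreated and 14.9 and 13.5 CPM in TMZ-exposed Surv-GFP, and at 32.4 and 33.9 CPM in untreated and 34.6 and 33.7 CPM in TMZ-exposed SurvNESmut-GFP. The Surv-GFP groups were apart, whereas the SurvNESmut-GFP groups overlapped above both of them. Its log2 fold change of −0.7 (SE 0.09, adjusted p = 3.6e-06) was the deepest fall of a member in Surv-GFP, and differed from the 0.04 of SurvNESmut-GFP by 0.74 (SE 0.12, adjusted p = 0.00011).

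RMI1 had 20.5 and 24.1 CPM in untreated and 14.6 and 13.9 CPM in TMZ-exposed Surv-GFP, and 26 and 25.3 CPM in untreated and 24.5 and 22.4 CPM in TMZ-exposed SurvNESmut-GFP. Exposed Surv-GFP stood below all other libraries. The log2 fold change in Surv-GFP was −0.64 (SE 0.1, adjusted p = 3e-05) and the effects differed by 0.51 (SE 0.13, adjusted p = 0.0066), although this was no longer past the threshold without the untreated Surv-GFP library b (adjusted p up to 0.05). TOP3A rose by 0.32 in SurvNESmut-GFP (SE 0.06, adjusted p = 0.0006), and the difference between its effects was 0.2 (SE 0.08, adjusted p = 0.084). WRN, a helicase and exonuclease of the same family as BLM, stood at 17.8 to 21 CPM in all libraries and passed none of the 5 tests.

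BLM had the widest span of all members. It was at 25.3 and 29.6 CPM in untreated and 19.5 and 20 CPM in TMZ-exposed Surv-GFP, and at 60.7 and 60.5 CPM in untreated and 66.2 and 62.7 CPM in TMZ-exposed SurvNESmut-GFP. All SurvNESmut-GFP libraries stood above all Surv-GFP libraries, and the groups within each clone did not overlap. Upon TMZ it fell by 0.47 on the log2 scale in Surv-GFP (SE 0.08, adjusted p = 0.00013), and the change of 0.09 in SurvNESmut-GFP was not past the threshold (SE 0.07, adjusted p = 0.32). The effects differed by 0.56 (SE 0.11, adjusted p = 0.00062).

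For the junction nucleases, EME1 and MUS81, the 2 subunits of a single enzyme, were called in opposite directions upon TMZ in Surv-GFP. EME1 was at 23.6 and 27.4 CPM in untreated and 22.3 and 20.8 CPM in TMZ-exposed Surv-GFP, and at 39.7 and 36.3 CPM in untreated and 52.3 and 50.7 CPM in TMZ-exposed SurvNESmut-GFP. No groups overlapped, and exposed SurvNESmut-GFP was the highest. The log2 fold changes were −0.24 (SE 0.09, adjusted p = 0.027) and 0.44 (SE 0.08, adjusted p = 0.00023), and they differed by 0.68 (SE 0.12, adjusted p = 0.00024). MUS81, the catalytic subunit, rose from 77.3 and 69.8 CPM to 88.4 and 88 CPM in Surv-GFP and from 76.5 and 75.6 CPM to 97 and 93.3 CPM in SurvNESmut-GFP. Exposed libraries lay above untreated ones in both clones, with log2 fold changes of 0.26 (SE 0.06, adjusted p = 0.00075) and 0.32 (SE 0.06, adjusted p = 0.00025). The fall of EME1 in Surv-GFP was not past the threshold without library b of either Surv-GFP group (adjusted p up to 0.32), and EME1 and MUS81 overlap LRRC59 and CFL1 on the opposite strand over 16.4 and 13.9% of their exon length.

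GEN1, a nuclease that cuts junctions on its own, had 39 and 42.4 CPM in untreated and 36.2 and 34.5 CPM in TMZ-exposed Surv-GFP, and 61.3 and 59.7 CPM in untreated and 69.8 and 63.2 CPM in TMZ-exposed SurvNESmut-GFP. The groups did not overlap, and both SurvNESmut-GFP groups were higher. It fell by 0.2 in Surv-GFP (SE 0.07, adjusted p = 0.023), and its effects differed by 0.34 (SE 0.1, adjusted p = 0.011). Both calls were lost without the untreated Surv-GFP library b, and the first also without the exposed library b, with adjusted p up to 0.22 and 0.077. SLX4, the scaffold that holds several nucleases, fell by 0.3 in Surv-GFP (SE 0.08, adjusted p = 0.0055), and the difference of 0.27 was not past the threshold (SE 0.12, adjusted p = 0.083).

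**Figure D3:**
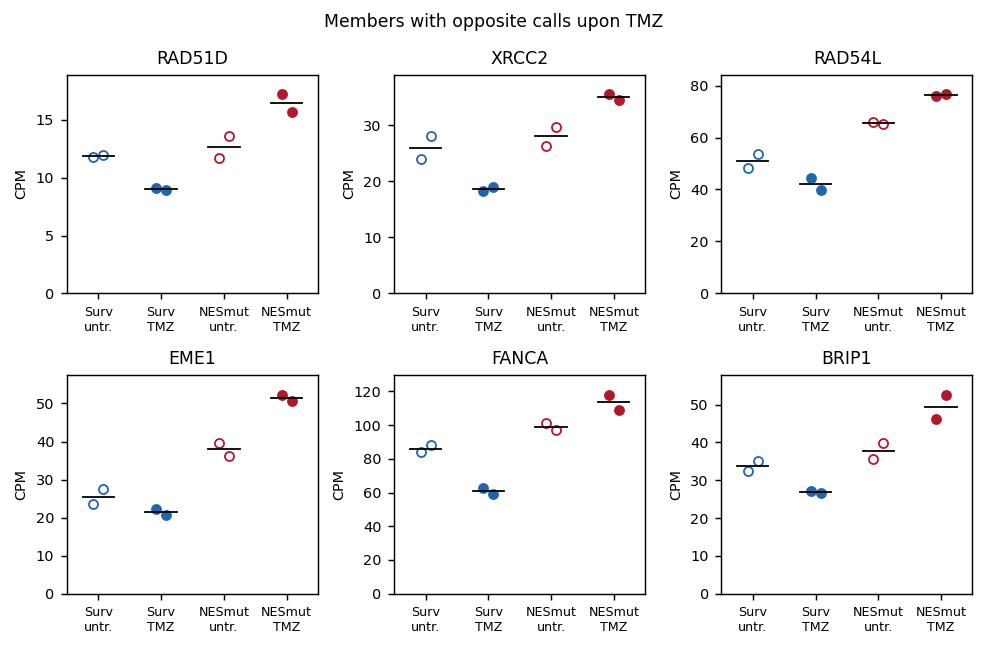
CPM of the 6 members that were lower upon TMZ in Surv-GFP and higher in SurvNESmut-GFP, by group, with a point for each library, a line for the mean of the 2 libraries and axes from 0. In each gene the exposed Surv-GFP points (filled blue) lie lowest and the exposed SurvNESmut-GFP points (filled red) highest, as for FANCA at 62.7 and 59.1 against 118 and 109 CPM.

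Of the Fanconi core complex with its E2 enzyme, 7 of 8 genes (87.5%) were lower upon TMZ in Surv-GFP, against 28.9% of all tested genes. The last, FANCG, had a log2 fold change of −0.17 (SE 0.08, adjusted p = 0.082). FANCG, an adaptor subunit, stood at 38.1 and 45.3 CPM in untreated and 37.8 and 36.4 CPM in TMZ-exposed Surv-GFP, and at 62.6 and 60.1 CPM in untreated and 72.4 and 66.9 CPM in TMZ-exposed SurvNESmut-GFP, with both SurvNESmut-GFP groups above both of Surv-GFP. The summed level of the 8 genes went from 310 and 326 CPM to 252 and 243 CPM in Surv-GFP, and from 370 and 363 CPM to 381 and 381 CPM in SurvNESmut-GFP. In the latter clone FANCA was called higher and FANCL lower (12.5% each), against 18.6% and 19.1% of all tested genes. FANCG there had a log2 fold change of 0.18 (SE 0.07, adjusted p = 0.052), called higher under 7 of 17 alternatives, among them a robust prior. Its fall in Surv-GFP was called under 4 of 17, among them no filter. The difference between the TMZ effects was called for FANCA, FANCC, FANCE, FANCF, FANCG and UBE2T, from 0.27 to 0.70. These are 75% of the 8 genes, against 16.6% of all tested genes in that direction, and the point estimate was above 0 for all 8.

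FANCA, a scaffold subunit of the core complex, stood at 83.9 and 88.3 CPM in untreated and 62.7 and 59.1 CPM in TMZ-exposed Surv-GFP, and at 101 and 97.1 CPM in untreated and 118 and 109 CPM in TMZ-exposed SurvNESmut-GFP. The 4 groups did not overlap. The log2 fold change was −0.5 (SE 0.06, adjusted p = 1.7e-06) in Surv-GFP and 0.2 (SE 0.06, adjusted p = 0.0088) in SurvNESmut-GFP, and the difference of 0.70 had the smallest adjusted p among the members (SE 0.08, adjusted p = 5.1e-06). The rise in SurvNESmut-GFP was not past the threshold without its untreated library b or its exposed library a (adjusted p up to 0.095), and 23.6% of the exon length of FANCA overlaps ZNF276 on the opposite strand.

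FANCE, the subunit that binds FANCD2, had 12.3 and 11.4 CPM in untreated and 8.98 and 8.09 CPM in TMZ-exposed Surv-GFP, and 15.7 and 14.9 CPM in untreated and 15.8 and 16.4 CPM in TMZ-exposed SurvNESmut-GFP. Exposed Surv-GFP was below all other libraries, and the exposed SurvNESmut-GFP libraries lay just above the untreated ones. It fell by 0.47 in Surv-GFP (SE 0.11, adjusted p = 0.0019), and the effects differed by 0.54 (SE 0.15, adjusted p = 0.0094). FANCL, the ligase subunit, went from 50.1 and 49 CPM to 37.1 and 38.6 CPM in Surv-GFP and from 52.3 and 54.1 CPM to 45.4 and 48 CPM in SurvNESmut-GFP. Exposed libraries lay below untreated ones in both clones, with log2 fold changes of −0.39 (SE 0.06, adjusted p = 4.9e-05) and −0.19 (SE 0.06, adjusted p = 0.022). The second was lost under 5 of 17 alternatives, among them the omission of either untreated SurvNESmut-GFP library or of its exposed library a, with adjusted p up to 0.14, and 18.7% of the exon length of FANCL overlaps VRK2 on the opposite strand.

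UBE2T, the E2 enzyme of the pathway, fell by 0.39 in Surv-GFP (SE 0.07, adjusted p = 0.00017), FANCF, an adaptor subunit, by 0.36 (SE 0.08, adjusted p = 0.00058), FANCC, which pairs with FANCE, by 0.22 (SE 0.08, adjusted p = 0.035) and FANCM, the motor protein that brings the complex to DNA, by 0.23 (SE 0.09, adjusted p = 0.043). The calls of FANCC and FANCM were lost in DESeq2, without library b of either Surv-GFP group and without either untreated SurvNESmut-GFP library, that of FANCC also without untreated and that of FANCM without exposed Surv-GFP library a, with adjusted p up to 0.2 and 0.29. The differences between the TMZ effects of UBE2T, FANCF, FANCC and FANCG were called at 0.27, 0.33, 0.31 and 0.35, and each was lost without the untreated Surv-GFP library b and without the untreated SurvNESmut-GFP library b, with adjusted p up to 0.18, 0.12, 0.15 and 0.14. Those of UBE2T and FANCC were further lost without 4 other libraries each, and that of FANCF, whose exons overlap GAS2 over 11.3% of their length, without library a of either Surv-GFP group. The differences of UBE2T, FANCF and FANCC were also lost in DESeq2.

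In the last group, FANCI and FANCD2, the pair that carries the ubiquitin mark, changed little in Surv-GFP. FANCI stood at 148 and 161 CPM in untreated and 152 and 146 CPM in TMZ-exposed Surv-GFP, and at 267 and 270 CPM in untreated and 335 and 342 CPM in TMZ-exposed SurvNESmut-GFP. The Surv-GFP groups overlapped, and the SurvNESmut-GFP groups were apart and both higher. Its log2 fold change was −0.05 (SE 0.05, adjusted p = 0.42) in Surv-GFP and 0.33 (SE 0.05, adjusted p = 7.4e-05) in SurvNESmut-GFP, with a difference of 0.38 (SE 0.07, adjusted p = 0.00062). FANCD2 was at 64.3 and 76.8 CPM in untreated and 66.5 and 61.4 CPM in TMZ-exposed Surv-GFP, and at 118 and 111 CPM in untreated and 127 and 129 CPM in TMZ-exposed SurvNESmut-GFP. Neither TMZ effect was past the threshold. That in Surv-GFP, −0.14 (adjusted p = 0.11), was called lower under 3 of 17 alternatives, among them no filter. That in SurvNESmut-GFP, 0.16 (adjusted p = 0.064), was called higher under 5 of 17, among them library size alone. The difference of 0.31 (SE 0.1, adjusted p = 0.023) was lost without any of 3 libraries, the b libraries of both untreated groups and of exposed Surv-GFP. It ranged from 0.17 to 0.43 over the alternatives.

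BRIP1, the helicase that binds BRCA1, had 32.5 and 35.2 CPM in untreated and 27.2 and 26.7 CPM in TMZ-exposed Surv-GFP, and 35.7 and 39.8 CPM in untreated and 46.3 and 52.6 CPM in TMZ-exposed SurvNESmut-GFP. The 4 groups did not overlap, with the exposed groups at either end. The log2 fold changes were −0.33 (SE 0.08, adjusted p = 0.003) and 0.39 (SE 0.08, adjusted p = 0.00085), and they differed by 0.72 (SE 0.11, adjusted p = 0.00013). FAN1, a nuclease drawn to the ubiquitinated pair, fell from 68.8 and 72.5 CPM to 52.7 and 56.4 CPM in Surv-GFP, and had 60.1 and 57.5 CPM before and 64.8 and 57.7 CPM after TMZ in SurvNESmut-GFP. The Surv-GFP groups were apart, with untreated Surv-GFP the highest of all 4. The fall was 0.38 on the log2 scale (SE 0.06, adjusted p = 0.00011) and the effects differed by 0.44 (SE 0.09, adjusted p = 0.0015). In the annotation 24.3% of the exon length of FAN1 overlaps MTMR10 on the opposite strand.

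Between the clones, these genes were mostly higher in SurvNESmut-GFP, and more of them with TMZ than without. These comparisons use the same 8 libraries as those above and are set beside them as levels only. Without TMZ, 20 of 37 members (54.1%) were higher in SurvNESmut-GFP, against 34.7% of all tested genes, and 5 (13.5%) were lower, against 29.4%. With TMZ, 27 members (73%) were higher, against 34.5% of all tested genes. Lower with TMZ were 0 members by edgeR or DESeq2, and 0 at an unadjusted p under 0.05, against 34.7% of all tested genes. The median difference over the members was 0.21 without and 0.53 with TMZ on the log2 scale, beside 0.03 and 0 over all tested genes. The summed level of the members was 1540 and 1620 CPM in untreated and 1490 and 1460 CPM in exposed Surv-GFP, and 1950 and 1940 against 2250 and 2240 CPM in SurvNESmut-GFP, so that the clones did not overlap.

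Without TMZ the largest differences were those of BLM at 1.14 (SE 0.07, adjusted p = 7.7e-10), FANCI at 0.80 (SE 0.05, adjusted p = 1e-09) and FANCD2 at 0.70 (SE 0.07, adjusted p = 2.1e-07), whose levels are given above. EME1, GEN1 and FANCG followed at 0.58, 0.57 and 0.56, and none of these 6 calls was lost under any alternative. The 5 lower members were FANCF at −0.45 (SE 0.08, adjusted p = 6.5e-05), RAD52 at −0.34, BARD1 at −0.3, FAN1 at −0.27 and RAD50 at −0.11. FANCF stood at 31.8 and 32.6 CPM in untreated Surv-GFP and at 24.7 and 22.4 CPM in untreated SurvNESmut-GFP, without overlap, and the exposed libraries had 25.1 and 25 CPM in Surv-GFP and 23 and 23.1 CPM in SurvNESmut-GFP. The call of RAD52 was lost without the untreated library a of Surv-GFP or b of SurvNESmut-GFP, that of BARD1 without the untreated library b of Surv-GFP and that of RAD50 without any of the 4 untreated libraries, with adjusted p up to 0.078, 0.098 and 0.2. That of RAD50 was also lost in DESeq2.

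With TMZ, BLM differed by 1.71 (SE 0.08, adjusted p = 9.9e-12), RMI2 by 1.26 (SE 0.08, adjusted p = 1.2e-09), EME1 by 1.25 (SE 0.08, adjusted p = 8.5e-10), FANCI by 1.18 (SE 0.05, adjusted p = 7.9e-12) and FANCD2 by 1 (SE 0.07, adjusted p = 2.2e-09). On the linear scale the fitted ratio of BLM between the exposed clones was 3.26, and that of RMI2 was 2.4. XRCC2, FANCE, FANCG and GEN1 each differed by 0.91. Of the 27 calls, 26 were kept under all 17 alternatives, and that of FAN1, at 0.17 (SE 0.07, adjusted p = 0.032), was lost without library a of either exposed group, in DESeq2 and with only the libraries compared, with adjusted p up to 0.61. The 10 members not past the threshold were RAD50, BARD1, PALB2, RAD51B, RAD52, RAD54B, WRN, TOP3A, MUS81 and FANCF, from −0.13 to 0.13.

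**Figure D4:**
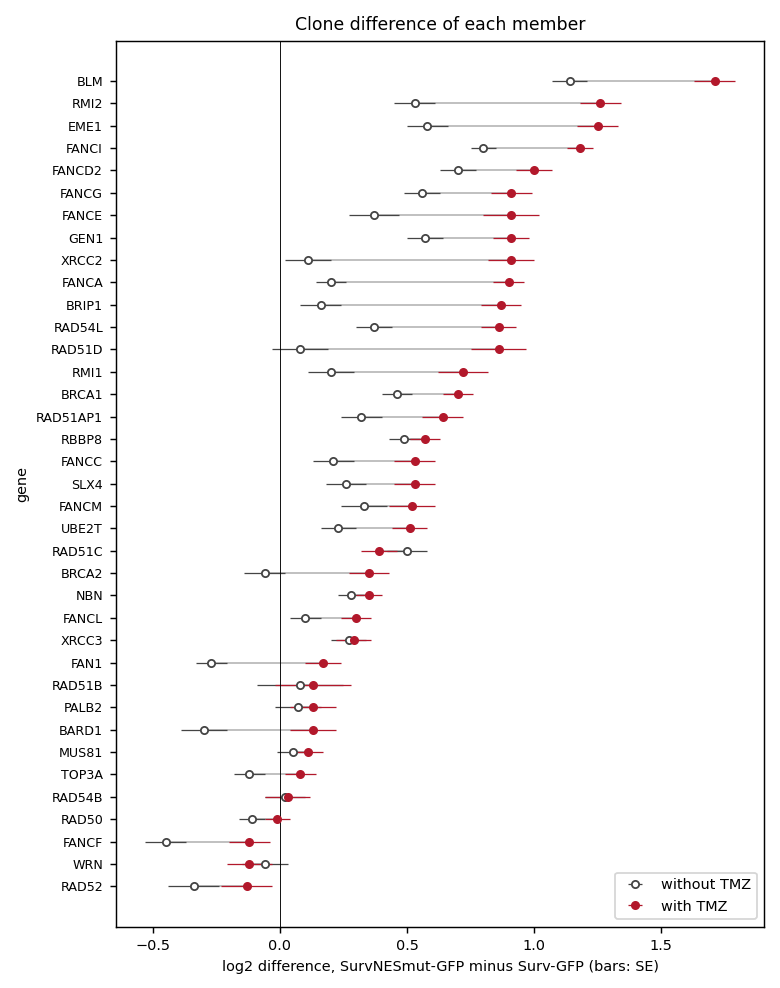
Log2 difference between the clones (SurvNESmut-GFP minus Surv-GFP) of each member without TMZ (open points) and with TMZ (filled points), with bars for the SE, in order of the difference with TMZ. Filled points reach from −0.13 for RAD52 to 1.71 for BLM, and lie to the right of the open ones for all members but RAD51C and WRN.

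Other genes of these pathways were called in both directions in each clone. Of 45 further genes of recombination and the Fanconi pathway, 43 were tested. In Surv-GFP 11 (25.6%) were higher and 12 (27.9%) lower upon TMZ, against 30.1% and 28.9% of all tested genes. In SurvNESmut-GFP 8 (18.6%) were higher and 4 (9.3%) lower, against 18.6% and 19.1%. The difference between the TMZ effects was called higher for 11 (25.6%) and lower for 6 (14%), against 16.6% and 20.2%, with a median of 0.05. RPA1, a subunit of the protein that coats single strands, fell by 0.53 in Surv-GFP (SE 0.05, adjusted p = 1.8e-07) with a difference between effects of 0.62 (SE 0.07, adjusted p = 3.7e-06). ERCC1, which partners a nuclease of crosslink repair, rose by 0.51 in Surv-GFP (SE 0.05, adjusted p = 4.9e-07), and its effects differed by −0.68 (SE 0.08, adjusted p = 5.4e-06). DNA2, a resection nuclease, had a difference of 0.77 (SE 0.12, adjusted p = 0.00013), and RECQL, a helicase, one of −0.44 (SE 0.08, adjusted p = 0.0006).

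Genes of DNA replication and of mitosis moved in these libraries too. Of 37 replication genes, 22 (59.5%) were lower and 5 (13.5%) higher upon TMZ in Surv-GFP, against 28.9% and 30.1% of all tested genes. In SurvNESmut-GFP 9 (24.3%) were higher and 7 (18.9%) lower, against 18.6% and 19.1%. The difference between effects was called higher for 22 (59.5%) and lower for 2 (5.41%), against 16.6% and 20.2%. MCM2, part of the replicative helicase, fell by 0.96 in Surv-GFP (SE 0.05, adjusted p = 8.9e-11) and its effects differed by 0.62 (SE 0.07, adjusted p = 3.3e-06). All 28 mitosis genes were lower upon TMZ in both clones, against 28.9% and 19.1% of all tested genes. Their median was −1.17 for Surv-GFP cells and −0.72 for SurvNESmut-GFP cells. The difference was called higher for 20 (71.4%) and lower for 1 (3.57%), against 16.6% and 20.2%. KIF20A, a kinesin of cell division, had log2 fold changes of −3.3 (SE 0.06, adjusted p = 2.3e-16) and −2.12 (SE 0.05, adjusted p = 1.5e-13). Their summed levels went from 5110 and 5530 CPM to 2250 and 2160 CPM in Surv-GFP and from 7360 and 7460 CPM to 4090 and 4160 CPM in SurvNESmut-GFP, and those of replication genes from 4090 and 4290 CPM to 3390 and 3300 CPM and from 5080 and 5160 CPM to 4830 and 4920 CPM. In SurvNESmut-GFP, 17 members were higher upon TMZ, beside 9 replication genes higher and 7 lower, and all 28 mitosis genes lower. The part of the replication and mitosis shifts in the members' values was not tested.

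Genes of 53BP1 and end joining, the route that competes with recombination, were also called in both directions. Of 18 tested, 4 (22.2%) were higher and 5 (27.8%) lower upon TMZ in Surv-GFP, against 30.1% and 28.9% of all tested genes. In SurvNESmut-GFP 5 (27.8%) were higher and 3 (16.7%) lower, against 18.6% and 19.1%. The difference between effects was called higher for 3 (16.7%), close to the 16.6% of all tested genes, and lower for 2 (11.1%), against 20.2%. PRKDC, the catalytic subunit of the kinase of end joining, had a difference of 0.46 (SE 0.07, adjusted p = 0.00016), and APTX, which clears blocked ends, one of −0.62 (SE 0.11, adjusted p = 0.00024).

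**Figure D5:**
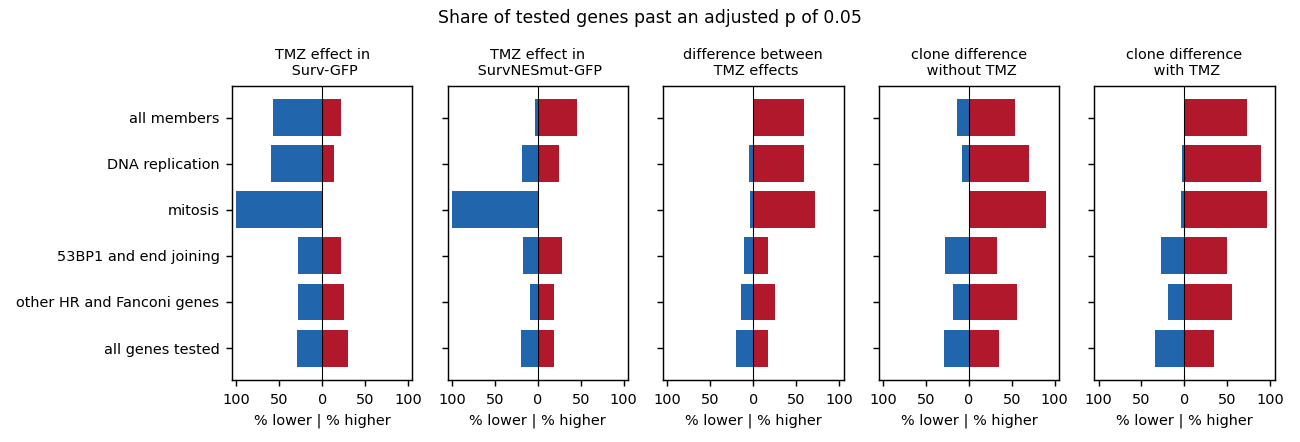
Percent of the tested genes of each list called higher (red, right) or lower (blue, left) at an adjusted p of 0.05 in the 5 comparisons, with bars from 0. In the difference between TMZ effects, 59.5% of the members, 59.5% of the replication genes, 71.4% of the mitosis genes and 16.7% of the end joining genes were called higher, beside 16.6% of all tested genes.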

How the data were processed

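The 8 RNA-seq libraries of 2 LN229 clones, Surv-GFP and SurvNESmut-GFP, untreated or exposed to TMZ, were grouped by their sample labels into 4 groups of 2. The authors' deposited table gives raw read counts by gene symbol, as whole numbers. STAR 2.5.0b, Cufflinks 2.2.1 and edgeR are named, without roles, in the submitters' processing notes, whereas a counting program, a strand setting and a genome build are not named there. Rows for reads on no gene (11.2 to 14.3% of reads) and for ambiguous reads (1.19 to 1.28%) were left out of library sizes and tests. The authors' 5 comparison tables, with log2 fold changes, log2 CPM, F, p and FDR, were not used.

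The raw counts were fitted with edgeR 4.0.16 and limma 3.58.1 (R 4.3.3). The model had 4 group means over the 8 libraries, and used TMM factors of 0.978 to 1.02, the low-count filter by group and the quasi-likelihood F test of earlier edgeR versions, and 5 contrasts were tested at a Benjamini-Hochberg adjusted p of 0.05 over 14201 genes. The common biological coefficient of variation was 4.09%. CPM values use TMM-scaled library sizes. All numbers of reads carry counting error as well, since no molecular identifiers are given. The fits were tested on simulated counts in which 200 genes were changed by 1 on the log2 scale, where edgeR recovered 199 for the TMZ effect in Surv-GFP (13960 genes fitted, 8 unchanged ones called) and 194 for the difference between TMZ effects (13956 fitted, 7 called). Only genes above a floor of reads were changed, and all genes and groups were given the same spread. Smaller changes were not simulated, and no TMZ effect or difference between TMZ effects of a member reached 1. The recovery therefore does not carry over to the calls of the members. Exon overlaps and lengths came from GENCODE release 29, and promoters from RefSeq.

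Libraries of the same letter showed little shared deviation over all tested genes, with a correlation of deviations between groups of −0.0671 to 0.0832. With 2 libraries a group and counting noise in each gene, this cannot exclude that a letter marks a shared batch. As alternatives, TMM was replaced by the size factors of DESeq2 or by library size alone, and the filter by none or by 1 CPM in 2 libraries. Further ones were DESeq2 1.42.0, the quasi-likelihood method of edgeR 4.0.16, a robust prior, the letter as a block, only the libraries compared (not for the difference between TMZ effects), and each library left out in turn. The lone library of a group is then assumed to vary like the others.

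Levels in every library are given for up to 6 members with the largest change past the threshold in each direction of each contrast and for members with opposite calls in the clones. BRCA1 was added after its values were seen, and all other members are given by test or range. From each other list, at most 2 genes per direction could be named, by their p. The members and lists were chosen with earlier results of these data known, so the counts are no independent support for a direction.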

Additional observations from a re-analysis of the deposited data

Results flagged for a closer look

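The TMZ effect differed between the clones, by a test of the interaction in edgeR, for 22 members, each with the larger log2 fold change in SurvNESmut-GFP. The difference was 0.80 for XRCC2, 0.78 for RAD51D, 0.74 for RMI2, 0.72 for BRIP1, 0.70 for FANCA and 0.68 for EME1, with adjusted p from 5.1e-06 for FANCA to 0.00095 for RAD51D. It was 0.56 for BLM, 0.54 for FANCE, 0.51 for RMI1, 0.49 for RAD54L, 0.44 for BARD1, 0.44 for FAN1, 0.41 for BRCA2 and 0.38 for FANCI. The smallest were 0.35 for FANCG, 0.34 for GEN1, 0.33 for FANCF, 0.32 for RAD51AP1, 0.31 for FANCC, 0.31 for FANCD2, 0.27 for UBE2T and 0.25 for BRCA1, with adjusted p from 0.011 for GEN1 to 0.046 for FANCC. With 2 libraries a group, no library could be tested as an outlier.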

How the results depend on the processing

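No member changed its sign under an alternative while called, and every median over the members kept its sign, from −0.29 to −0.15 for TMZ in Surv-GFP, 0.16 to 0.21 for it in SurvNESmut-GFP, 0.24 to 0.37 for the difference between TMZ effects, 0.16 to 0.28 for the clones without TMZ and 0.46 to 0.55 with TMZ. Calls kept under all alternatives were 18 of 29 for TMZ in Surv-GFP, 12 of 18 for it in SurvNESmut-GFP, 11 of 22 for the difference, 16 of 25 for the clones without TMZ and 26 of 27 with TMZ. Members higher upon TMZ in Surv-GFP were 8, and 4 in DESeq2, with 5 to 9 when single libraries were left out. The single member lower in SurvNESmut-GFP, FANCL, was lost with library size alone and in DESeq2 (0 members each), and leaving out single libraries gave 0 to 2. For the difference between TMZ effects the 22 members became 25 with library size alone or with 1 CPM in 2 libraries (TOP3A, SLX4 and FANCL were added), 18 in DESeq2, and 11 to 22 when single libraries were left out, the lowest without the untreated Surv-GFP library b. For members lower in untreated SurvNESmut-GFP the 5 became 3 to 6. With the letter as a replicate block the counts higher and lower were 8 and 20 for TMZ in Surv-GFP, 17 and 1 for it in SurvNESmut-GFP, 21 and 0 for the difference, 20 and 4 for the clones without TMZ and 27 and 0 with TMZ. The block ended the calls of NBN for TMZ in Surv-GFP, FANCC for the difference and RAD50 for the clones without TMZ. Calls over all tested genes shifted under these settings too. For the difference between TMZ effects, those higher went from 2355 to 2909 with library size alone. They were 2815 of 13504 with 1 CPM in 2 libraries, and 1786 in DESeq2. Calls higher upon TMZ in Surv-GFP went from 4271 to 3417 in DESeq2. Calls lower in SurvNESmut-GFP went from 2719 to 2236 with library size alone and to 2056 in DESeq2. The causes of these shifts were not tested. Depth limits the members with few reads most, RAD51B with 78 to 123 reads a library having an SE of 0.16 for its TMZ effects, against 0.05 for FANCI.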
